A study of Mus musculus with 5 samples.

Results

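Genes of cholesterol synthesis, uptake and efflux were examined in lymphatic endothelial cells (LECs) that had been sorted out of lymph nodes of mice as CD45-, TER119-, CD31+ and podoplanin+ cells. The group holds 31 genes of the 27843 in the count table, chosen by function: 18 enzymes, 5 genes of the SREBP system, 3 sterol carriers and 5 genes of efflux and its control. Every one of the 31 was found by symbol and passed the filter on low counts. The knockout group had 2 libraries from mice with the genotype Ccl19 Cre Rankl flox/flox, in which Cre driven by Ccl19 removes the cytokine RANKL from Ccl19-expressing stromal cells. The control group had 3 libraries from Rankl flox/flox littermates without the Cre. Both groups thus carry the floxed Rankl allele, share the C57BL/6 background and were 8 weeks old. The deletion is meant for stromal cells and not for the LECs themselves. The comparison asks which LEC transcripts differ when stromal RANKL is removed. The number of animals behind each library is not stated, so p-values measure the spread between these 5 libraries.

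Cells make cholesterol from acetyl-CoA through mevalonate, squalene and lanosterol. Transcription of most of these enzymes is driven by SREBP2, a factor that INSIG proteins hold in the endoplasmic reticulum, bound to SCAP, while sterol is plentiful and released when sterol is scarce. In the opposite state, oxysterols activate the nuclear receptors LXRα and LXRβ, which induce the exporters ABCA1 and ABCG1 and the ubiquitin ligase MYLIP. Endothelial cells take up cholesterol from lipoproteins as well as making it, and lymphatic vessels are a route by which cholesterol leaves tissue on high-density lipoprotein.

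Library totals were 52839375 to 70171307 counts. CPM below are counts scaled to library size. All 8 LEC markers examined were present, of which 1 rose and 1 fell. Mmrn1, an extracellular matrix protein gene of lymphatic endothelium, had 5029.2 and 3056.0 CPM in knockout libraries 1 and 2, against 1705.8, 1127.0 and 1292.1 CPM in control libraries 1, 2 and 3. Prox1, the lymphatic fate factor, had 884.1 and 851.7 CPM in the knockouts, against 1577.1, 1383.9 and 1416.4 CPM in the controls. Tnfsf11, which encodes RANKL, had 9 and 0 reads in the knockout libraries and 27, 13 and 9 reads in the control libraries. These reads do not check a deletion made in another cell type. Of 8 blood endothelial markers, 6 rose and 0 fell in knockout. Of 12 macrophage markers, 10 were tested and 1 rose and 2 fell. Adgre1 rose, with 15 and 20 reads in the knockouts and 0 in each control. Csf1r fell from a mean of 1.5 CPM in controls to 0.251 in knockouts, and Mpeg1 from 2.74 to 0.568. The summed level of the macrophage markers was 42.0 and 40.5 CPM in the knockouts and 47.2 to 51.0 CPM in the controls. Most of that sum was Mertk, uncalled at 28.7 and 26.6 CPM in the knockouts and 26.0, 29.4 and 30.9 CPM in the controls. Cd163 had 0 reads in all 5 libraries. Summed fibroblastic reticular markers (7 genes) stood at 1030.0 CPM in knockout library 1 and 459.9 CPM in knockout library 2, against 290.7 to 458.7 CPM in the controls. Of 7 adipocyte markers 3 were tested, Car3, Fabp4 and Pparg, and all 3 rose. Lep had 0 reads in all libraries and Adipoq 0 reads in the controls. In those controls Fabp4 averaged 209.7 CPM and Pparg 36.5 CPM, so these 2 do not mark adipocytes alone here. Car3 was low, with a mean of 1.89 CPM in knockouts and 0.111 in controls. What these other cells or a changed mix of LECs contributed to the results below was not tested, and in sorted pools fewer cells of a type cannot be told apart from less RNA per cell.

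A pair of promoters is shown, that of Abca1, an LXR target called below, and that of Hmgcs1, an SREBP2 target that was not called. They are the 250 bases before the start of each gene, from RefSeq on build GRCm38.p6, written 5′ to 3′ on the gene's strand. The Abca1 stretch is chr4:53159896-53160145, minus strand, and the Hmgcs1 stretch is chr13:119690101-119690350, plus strand. Capitals mark, in Abca1, the best match to a direct repeat of the nuclear receptor element AGGTCA with 4 bases between, read on the opposite strand. In Hmgcs1 they mark the sterol element core TCACNCCAC.
Abca1: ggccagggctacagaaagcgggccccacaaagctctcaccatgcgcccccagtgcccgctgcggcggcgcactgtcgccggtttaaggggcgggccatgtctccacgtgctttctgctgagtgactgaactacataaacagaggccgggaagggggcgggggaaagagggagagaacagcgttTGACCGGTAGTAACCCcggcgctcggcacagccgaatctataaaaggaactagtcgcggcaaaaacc
Hmgcs1: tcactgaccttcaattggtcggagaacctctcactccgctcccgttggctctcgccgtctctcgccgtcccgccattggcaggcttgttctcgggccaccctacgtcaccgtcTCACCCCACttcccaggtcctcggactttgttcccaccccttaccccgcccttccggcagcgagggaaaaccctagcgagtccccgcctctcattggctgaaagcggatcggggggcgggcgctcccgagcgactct

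The Abca1 repeat begins 67 bases before the start and differs from the searched letters at 3 of 12 positions. At that tolerance, on both strands and from 250 bases before to 50 after the start, 24.5% of 27025 genes with a promoter sequence hold such a repeat, as do 8 of the 25 sterol genes with one. The sterol element core begins 137 bases before the Hmgcs1 start. It was found in 1 of the 25 sterol genes, Hmgcs1, and in 1.44% of all genes. The CCAAT box (CCAAT) was found in 20 of the 25, and in 41.1% of all genes, and the GC box (GGGCGG) in 22 of the 25, and in 38.2% of all genes. These matches are descriptions of the letters and not evidence of binding.

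Abca1 was the one sterol gene of 31 whose difference passed the test over all genes. It encodes the transporter that hands cholesterol to apolipoprotein A-I, and per kilobase of exon it was the most abundant of the 31 in control LECs. Its level was 343.9 and 285.1 CPM in knockout libraries 1 and 2, against 742.3, 634.4 and 553.3 CPM in control libraries 1, 2 and 3. Both knockout libraries lay well below the lowest control. The means were 314.5 ± 41.6 CPM in knockouts (SD, n = 2) and 643.4 ± 94.8 CPM in controls (SD, n = 3). The difference on the log2 scale was -1.03 with an SE of 0.16 (edgeR quasi-likelihood test, Benjamini-Hochberg adjusted p = 0.02). Log2 fold changes are knockout minus control throughout and stand with their SE. Abca1 (ENSMUSG00000015243) lies on chromosome 4, 53030787 to 53159895, minus strand (mm10), and 0 of its exon bases are shared with another annotated gene.

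The Abca1 counts were 18830 and 16581 reads in the knockouts and 52716, 39596 and 28753 reads in the controls, so counting error is small beside the spread between libraries. Abca1 supplied 20.2% and 14.9% of the summed CPM of the 31 genes in the knockouts, and 30.8%, 29.1% and 23.9% in the controls. The other 30 genes together stood at 1356.5 and 1624.6 CPM in the knockouts and at 1664.2, 1546.8 and 1761.2 CPM in the controls. The call was lost without control library 2 (log2 fold change -1.04 ± 0.19, edgeR adjusted p = 0.066) and without control library 3 (-1.13 ± 0.16, edgeR adjusted p = 0.075). Over the 5 fits that leave out a library the log2 fold change was -1.18 to -0.91.

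Set against the table, the sterol genes were not called more often than other genes. Of the 31, 0 were called higher and 1 lower (3.23%), where 7.24% of 15874 tested genes were called, 3.25% higher and 3.99% lower. At an unadjusted p under 0.05 the count was 9 (29.0%), 3 higher and 6 lower, against 26.4% of all tested genes. DESeq2 called 0 higher and 5 lower: Abca1, Lss, Insig2, Stard4 and Mylip. DESeq2 called 17.1% of all tested genes, so 5 of 31 is near that share. Both knockout libraries fell outside the control range for 15 of the 31, above it for 6 and below it for 9. The same held for 45.4% of all tested genes, 22.8% above and 22.5% below. The log2 fold changes of the 31 ran from -1.03 to 0.63, with 27 of 31 smaller than 0.5 in size (87.1%, against 71.4% of all tested genes). Their median was -0.16, that of all tested genes 0.00, and 22 of 31 were negative (71.0%, against 50.1%). Without knockout library 1 the median was -0.01, and without knockout library 2 it was -0.27.

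**Figure D1:**
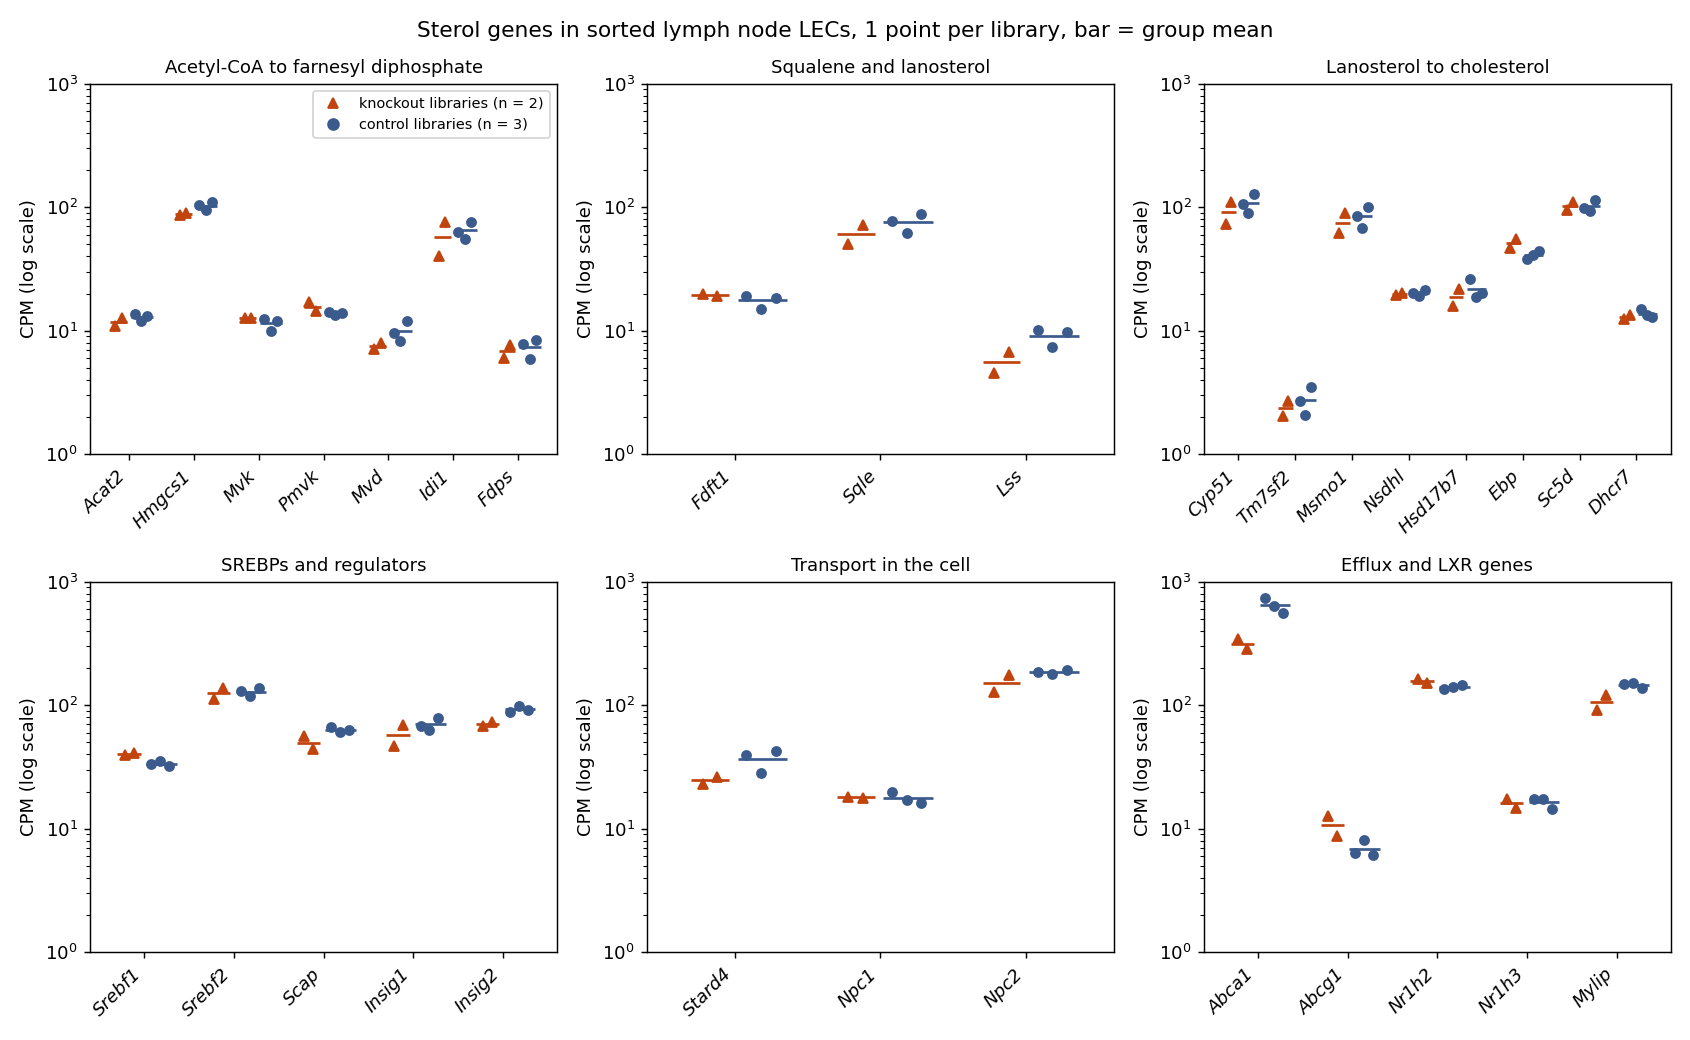
CPM on a log axis for the 31 sterol genes in 6 panels by role, 1 point per library (triangles, 2 knockout libraries; circles, 3 control libraries), with a bar at each group mean. For Abca1 the knockout points, 343.9 and 285.1 CPM, lie below all 3 control points, and most enzymes have knockout points among or close to the controls.

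**Figure D2:**
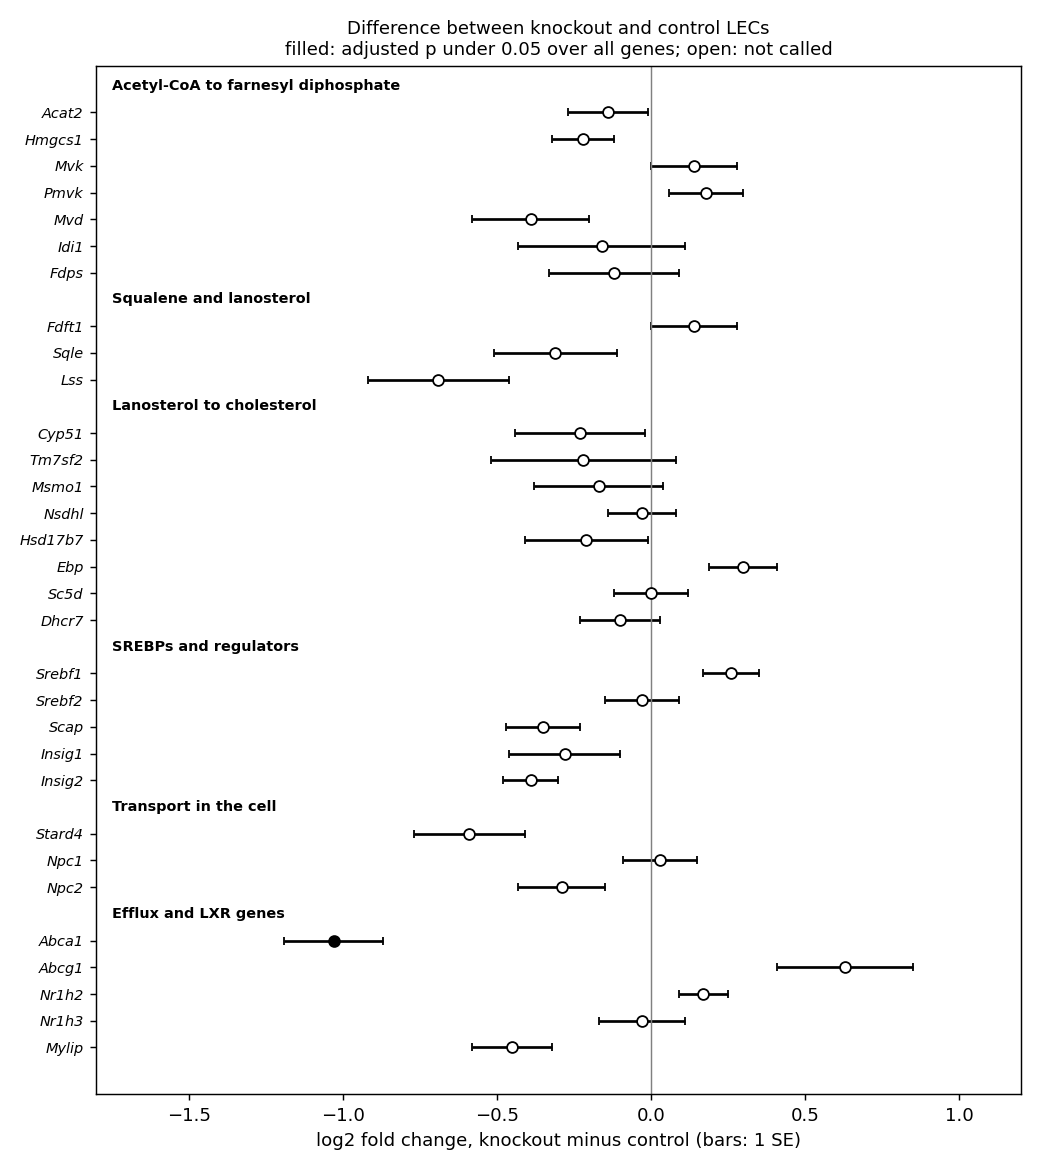
Log2 fold change, knockout minus control, of the 31 sterol genes by role (horizontal axis), with bars of 1 SE. The filled point, Abca1 at -1.03, passed adjusted p 0.05 over all genes, and the open points did not.

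The efflux and LXR genes did not move as a block. Abcg1, a transporter that loads cholesterol onto high-density lipoprotein (chromosome 17, 31057675 to 31117988), had 12.6 and 8.68 CPM in the knockouts, against 6.31, 8.17 and 6.14 CPM in the controls. Its knockout values lay above the controls, by a narrow margin for knockout library 2. The log2 fold change was 0.63 ± 0.22 and did not pass (edgeR adjusted p = 0.12). Without knockout library 2 it was 0.87 ± 0.20 and passed (edgeR adjusted p = 0.041), and without knockout library 1 it was 0.33 ± 0.22 (edgeR adjusted p = 0.35). Abcg1 was a low transcript, at 1.46 CPM per kilobase of exon in knockouts and 0.942 in controls, where Abca1 had 30.3 and 62.1.

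Mylip, whose product is a ubiquitin ligase that limits lipoprotein uptake (chromosome 13, 45389742 to 45412022), had 92.2 and 121.5 CPM in the knockouts, against 147.2, 152.6 and 137.2 CPM in the controls. Both knockout libraries were below the control range. The log2 fold change was -0.45 ± 0.13 and did not pass (edgeR adjusted p = 0.087), and it was -0.66 ± 0.10 without knockout library 2 (edgeR adjusted p = 0.013) and -0.27 ± 0.11 without knockout library 1 (edgeR adjusted p = 0.15). Nr1h2, which encodes LXRβ, had 162.7 and 152.0 CPM in the knockouts and 135.6, 139.3 and 144.6 CPM in the controls, a log2 fold change of 0.17 ± 0.08 (edgeR adjusted p = 0.25). Nr1h3, which encodes LXRα, had 17.5 and 14.6 CPM in the knockouts and 17.3, 17.3 and 14.5 CPM in the controls, a log2 fold change of -0.03 ± 0.14. The values of Nr1h3 overlapped. Per kilobase of exon, the level of Nr1h2 was 46.9 CPM in knockouts and 41.7 in controls, and that of Nr1h3 was 6.39 in knockouts and 6.51 in controls. LXRβ was thus the more abundant LXR transcript of these cells in both groups.

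Among the SREBP genes 0 of 5 passed the edgeR test, 3 had an unadjusted p under 0.05, and DESeq2 called 1, Insig2. Insig2 encodes an anchor that keeps SCAP in the endoplasmic reticulum (chromosome 1, 121304353 to 121332589). It had 68.0 and 73.7 CPM in the knockouts, against 88.7, 98.9 and 91.2 CPM in the controls, with no overlap. Its log2 fold change, -0.39 ± 0.09, lay just short of the threshold (edgeR adjusted p = 0.052). It was called without knockout library 2 (-0.46 ± 0.11, edgeR adjusted p = 0.04) and not without knockout library 1 (-0.34 ± 0.11, edgeR adjusted p = 0.087). Insig1 encodes the other INSIG protein and is itself an SREBP target. Insig1 had 46.9 and 68.6 CPM in the knockouts and 68.4, 63.1 and 78.9 CPM in the controls. Knockout library 1 was below all controls and knockout library 2 among them. The log2 fold change was -0.28 ± 0.18 (edgeR adjusted p = 0.36), and -0.59 ± 0.14 without knockout library 2 (edgeR adjusted p = 0.047). Without knockout library 1 it was -0.04 ± 0.14 (edgeR adjusted p = 0.89).

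Scap, which encodes the sterol sensor that escorts SREBPs, had 56.0 and 43.9 CPM in the knockouts, against 67.2, 60.5 and 62.9 CPM in the controls. The groups did not overlap, and the log2 fold change of -0.35 ± 0.12 did not pass (edgeR adjusted p = 0.13). Without knockout library 1 it was -0.54 ± 0.11 and passed (edgeR adjusted p = 0.029), and without knockout library 2 it was -0.19 ± 0.11 (edgeR adjusted p = 0.31). Srebf1, the SREBP gene linked to fatty acid synthesis and an LXR target (chromosome 11, 60199089 to 60222581), had 39.6 and 40.8 CPM in the knockouts and 33.3, 35.3 and 32.1 CPM in the controls. The knockouts were higher in each case, by a log2 fold change of 0.26 ± 0.09 that did not pass (edgeR adjusted p = 0.12). Srebf2, which encodes SREBP2, had 111.7 and 138.8 CPM in the knockouts and 129.1, 118.7 and 136.8 CPM in the controls. The Srebf2 groups overlapped, with a log2 fold change of -0.03 ± 0.12. Counts per gene do not separate the isoforms of Srebf1.

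The 18 enzymes from acetyl-CoA to cholesterol showed no called difference between the groups. By the edgeR test 0 of 18 passed, 2 of 18 (Lss and Ebp) had an unadjusted p under 0.05, limma-voom called 0 and DESeq2 called Lss. The knockouts lay within or across the control range for 12 of the 18, below it for 3 (Hmgcs1, Mvd, Lss) and above it for 3 (Mvk, Pmvk, Ebp). Their summed level was 580.6 and 741.1 CPM in the knockouts and 724.7, 629.1 and 806.4 CPM in the controls. Knockout library 1 was below all controls in this sum, and knockout library 2 was above 2 of the 3.

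Of the mevalonate steps, Hmgcs1, the HMG-CoA synthase of the cytosol, had 86.8 and 89.7 CPM in the knockouts and 104.1, 94.4 and 110.8 CPM in the controls. The knockouts sat just under the lowest control, with a log2 fold change of -0.22 ± 0.10 (edgeR adjusted p = 0.20). Mvd, which makes isopentenyl diphosphate, had 7.12 and 7.96 CPM in the knockouts and 9.56, 8.22 and 12.0 CPM in the controls, a log2 fold change of -0.39 ± 0.19 (edgeR adjusted p = 0.24). Mvk (0.14 ± 0.14) and Pmvk (0.18 ± 0.12), the kinases between them, had small positive log2 fold changes. Acat2, a thiolase that joins acetyl-CoA units (-0.14 ± 0.13), and Fdps, the farnesyl diphosphate synthase (-0.12 ± 0.21), overlapped between the groups. Idi1, the isomerase of isopentenyl diphosphate, differed most between the knockout libraries, at 40 and 75.8 CPM, against 63.4, 55.0 and 76.2 CPM in the controls. Its log2 fold change of -0.16 ± 0.27 was 0.22 ± 0.17 without knockout library 1 and -0.70 ± 0.19 without knockout library 2, and passed in neither fit (edgeR adjusted p = 0.44 and 0.063).

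In the squalene and lanosterol steps, Lss, the lanosterol synthase (chromosome 10, 76531588 to 76557138), had 4.57 and 6.69 CPM in the knockouts, against 10.2, 7.45 and 9.72 CPM in the controls. The groups did not overlap, and the log2 fold change of -0.69 ± 0.23, the most negative of the 18 enzymes, did not pass (edgeR adjusted p = 0.11). It was -1.0 ± 0.24 without knockout library 2 (edgeR adjusted p = 0.043) and -0.45 without knockout library 1. Sqle, the squalene epoxidase, had 50.0 and 72.3 CPM in the knockouts and 77.9, 61.7 and 88.3 CPM in the controls, which overlapped (log2 fold change -0.31 ± 0.20). Fdft1, the squalene synthase that opens the sterol branch, had 19.8 and 19.1 CPM in the knockouts and 19.3, 15.1 and 18.4 CPM in the controls (0.14 ± 0.14). Fdft1 shares 18.3% of its annotated exon bases with Ctsb on the other strand and Fdps 26.7% with Gm43738, so reads in those stretches have no certain source.

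After lanosterol, Ebp, the isomerase that shifts the ring double bond (chromosome X, 8185329 to 8193512), had 46.8 and 55.0 CPM in the knockouts, against 38.3, 41.3 and 44.1 CPM in the controls. It was higher in both knockout libraries, by a log2 fold change of 0.30 ± 0.11 that did not pass (edgeR adjusted p = 0.14). Cyp51, the lanosterol demethylase, had 73.3 and 110.7 CPM in the knockouts and 105.7, 90.3 and 126.8 CPM in the controls (log2 fold change -0.23 ± 0.21). Msmo1, the methylsterol oxidase, had 61.3 and 89.0 CPM in the knockouts and 84.9, 68.5 and 100.4 CPM in the controls (-0.17 ± 0.21). In both genes knockout library 1 was the lowest of all 5 and knockout library 2 lay inside the control range. The desaturase Sc5d (0.00 ± 0.12), the dehydrogenase Nsdhl (-0.03 ± 0.11), the final reductase Dhcr7 (-0.10 ± 0.13), the reductase Hsd17b7 (-0.21 ± 0.20) and Tm7sf2 (-0.22 ± 0.30), a reductase acting after Cyp51, overlapped between the groups. Tm7sf2 was among the least abundant of the 31, at 0.537 CPM per kilobase of exon in knockouts and 0.624 in controls.

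The enzymes shared an order of libraries inside each group. Knockout library 1 was below knockout library 2 for 15 of 18 enzymes (83.3%, against 48.9% of all tested genes). Control library 2 was the lowest control for 16 of 18 (88.9%, against 32.7%) and control library 3 the highest for 11 of 18 (61.1%, against 31.1%). In the knockouts the enzymes farthest apart were Idi1, at -0.70 and 0.23 on the log2 scale relative to the control mean, Cyp51, at -0.55 and 0.04, and Lss, at -1.0 and -0.45. Ebp, Mvk, Pmvk and Fdft1 were above the control mean in both knockout libraries. These shares describe 5 libraries, and the enzymes are not independent of each other. The fibroblastic reticular sum ran opposite to this order in the knockouts, at 1030.0 CPM in knockout library 1 and 459.9 CPM in knockout library 2. In control libraries 1, 2 and 3 that sum was 442.2, 458.7 and 290.7 CPM. It was highest in control library 2 and lowest in control library 3. Dcn was the largest part of the sum, at 692.4 and 331.6 CPM in the knockouts and 217.2, 325.2 and 234.1 CPM in the controls. Of the others, Col1a1, Col1a2, Col3a1, Pdgfra and Ccl19 were highest in control library 1 among the controls and Pdgfrb in control library 2. The part of these markers was not tested.

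**Figure D3:**
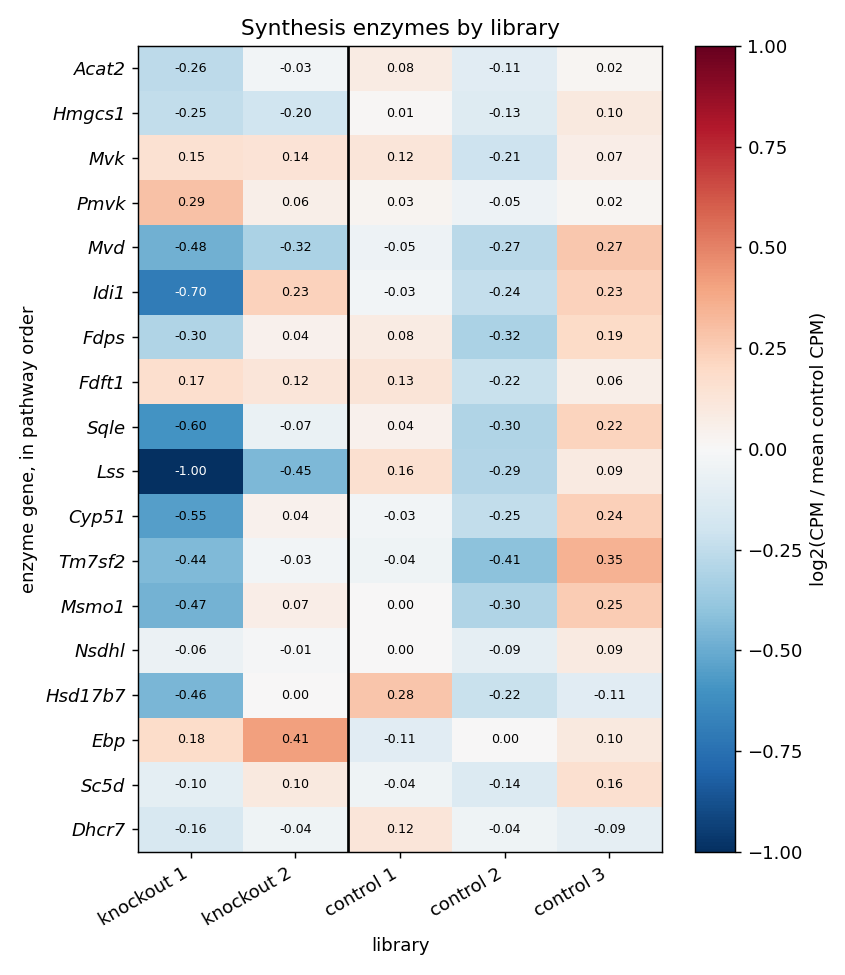
Log2 of CPM over the mean control CPM for the 18 synthesis enzymes (vertical, in pathway order) in 2 knockout and 3 control libraries (horizontal, split by a line), blue below and red above the control mean. Knockout library 1 is mostly blue, with Lss at -1.0 and Idi1 at -0.70, and control library 2 is paler blue in most enzymes.

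Among 3 carriers of sterol within the cell, 0 passed by edgeR, 1 had an unadjusted p under 0.05 and DESeq2 called 1. Stard4, a cytosolic sterol carrier induced by SREBP2, had 23.2 and 26.0 CPM in the knockouts, against 39.9, 28.4 and 42.8 CPM in the controls. Both knockout libraries were below every control, with control library 2 the nearest. The log2 fold change of -0.59 ± 0.18 did not pass (edgeR adjusted p = 0.098) but was called by DESeq2 (adjusted p = 0.026). Npc2, which picks up cholesterol inside the lysosome, had 127.1 and 176.8 CPM in the knockouts and 186.7, 178.1 and 191.6 CPM in the controls, with knockout library 2 just under the controls. The log2 fold change was -0.29 ± 0.14 (edgeR adjusted p = 0.26), and -0.55 ± 0.10 without knockout library 2 (edgeR adjusted p = 0.02). Without knockout library 1 it was -0.07 ± 0.10 (edgeR adjusted p = 0.66). Npc1, the membrane partner of Npc2, had 18.2 and 17.9 CPM in the knockouts and 19.7, 17.2 and 16.1 CPM in the controls, a log2 fold change of 0.03 ± 0.12.

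By level per kilobase of exon, 3 of the 5 efflux and LXR genes led the group, while Abcg1 ranked 29 of 31 in both groups and Nr1h3 ranked 19. In knockouts the order was Nr1h2 (46.9 CPM per kilobase), Mylip (33.0), Abca1 (30.3) and Npc2 (27.9). In controls it was Abca1 (62.1), Mylip (45), Nr1h2 (41.7) and Npc2 (34.1). Abca1 thus ranked 3 of 31 in knockouts and 1 of 31 in controls. The enzymes ran from 22 (Ebp) to 0.522 (Lss) in knockouts and from 24.4 (Cyp51) to 0.624 (Tm7sf2) in controls. Exon lengths are the union of all annotated exons, which lowers the level of a gene with long unused exons.

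Related lists held 75 further genes, of which 69 were tested, 2 rose and 8 fell (14.5% called, against 7.24% of all tested genes). The lists were chosen with earlier results of these data known, so the share of all genes is no fair yardstick for them. Of these calls, 1 higher and 5 lower were in the fatty acid list of 15 genes. The median log2 fold change of the 69 was -0.14. Of 9 other synthesis and control genes 0 passed by edgeR, 4 had an unadjusted p under 0.05, all lower, and DESeq2 called 1. Erlin2, an endoplasmic reticulum protein of the sterol-dependent degradation machinery, had 104.3 and 102.1 CPM in the knockouts, against 124.7, 138.2 and 141.0 CPM in the controls. Both knockout libraries lay below the control range, and the log2 fold change of -0.38 ± 0.09 did not pass (edgeR adjusted p = 0.053). Of 6 genes of lipoprotein uptake, 5 were tested and 0 passed by edgeR or by DESeq2, with 0 at an unadjusted p under 0.05 and a median log2 fold change of -0.03.

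Of 12 transport and esterification genes 0 rose and 2 fell. Nceh1, a cholesteryl ester hydrolase, had 179.6 and 182.2 CPM in the knockouts and 348.8, 297.7 and 302.9 CPM in the controls (log2 fold change -0.81 ± 0.10, edgeR adjusted p = 0.015). Osbpl5, an oxysterol-binding protein relative, also fell (-0.44 ± 0.09, edgeR adjusted p = 0.042).

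Of 12 other efflux and LXR genes, 9 were tested, 1 rose and 1 fell. Pltp, a phospholipid transfer protein gene induced by LXR, rose to 15.7 and 16.4 CPM in the knockouts, against 8.11, 10.6 and 6.60 CPM in the controls (log2 fold change 0.93 ± 0.20, edgeR adjusted p = 0.043). Rxra, a partner receptor of the LXRs, fell by 0.40 ± 0.08 on the log2 scale (edgeR adjusted p = 0.038). Pltp, Rxra and Osbpl5 each lost the call without any 1 control library. Pltp also lost it without either knockout library, Rxra and Osbpl5 without knockout library 2, and all 3 with library totals alone. Among 5 tested oxysterol enzymes 0 passed by edgeR, 4 had an unadjusted p under 0.05 and DESeq2 called 1. Ch25h, which makes an oxysterol from cholesterol, had 16.7 and 10.8 CPM in the knockouts and 5.58, 9.12 and 5.79 CPM in the controls (log2 fold change 1.01 ± 0.28, edgeR adjusted p = 0.073), and Cyp7b1 had a log2 fold change of -0.74 ± 0.28 (edgeR adjusted p = 0.15). Of 14 isoprenoid branch genes 0 passed by edgeR, 3 had an unadjusted p under 0.05 and DESeq2 called 3, with Pggt1b at -0.41 ± 0.10 and Fnta at 0.33 ± 0.08.

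Of 15 genes of fatty acid and glycerolipid synthesis, the arm served by SREBP1, 1 rose and 5 fell. Scd1, the stearoyl-CoA desaturase and a target of both LXR and SREBP1, rose to 95.2 and 85.8 CPM in the knockouts, against 33.9, 39.5 and 42.4 CPM in the controls (log2 fold change 1.23 ± 0.12, edgeR adjusted p = 0.0098). Fasn, the fatty acid synthase, had 80.5 and 88.5 CPM in the knockouts and 177.1, 140.0 and 154.4 CPM in the controls (-0.90 ± 0.12, edgeR adjusted p = 0.016). Lpin1 (-1.17 ± 0.12) and Gpam (-1.04 ± 0.15), enzymes of glycerolipid synthesis, and the carboxylases Acacb (-1.25 ± 0.21) and Acaca (-0.71 ± 0.14) fell as well. Of the 10 genes called in these related lists, 0 kept the call without control library 3, 4 without control library 2 and 5 without control library 1. With the length and GC offset 5 kept it, and Fasn, Acaca, Osbpl5, Rxra and Pltp lost it. Over all tested genes the Spearman correlation of log2 fold change with exon length was -0.209.

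**Figure D4:**
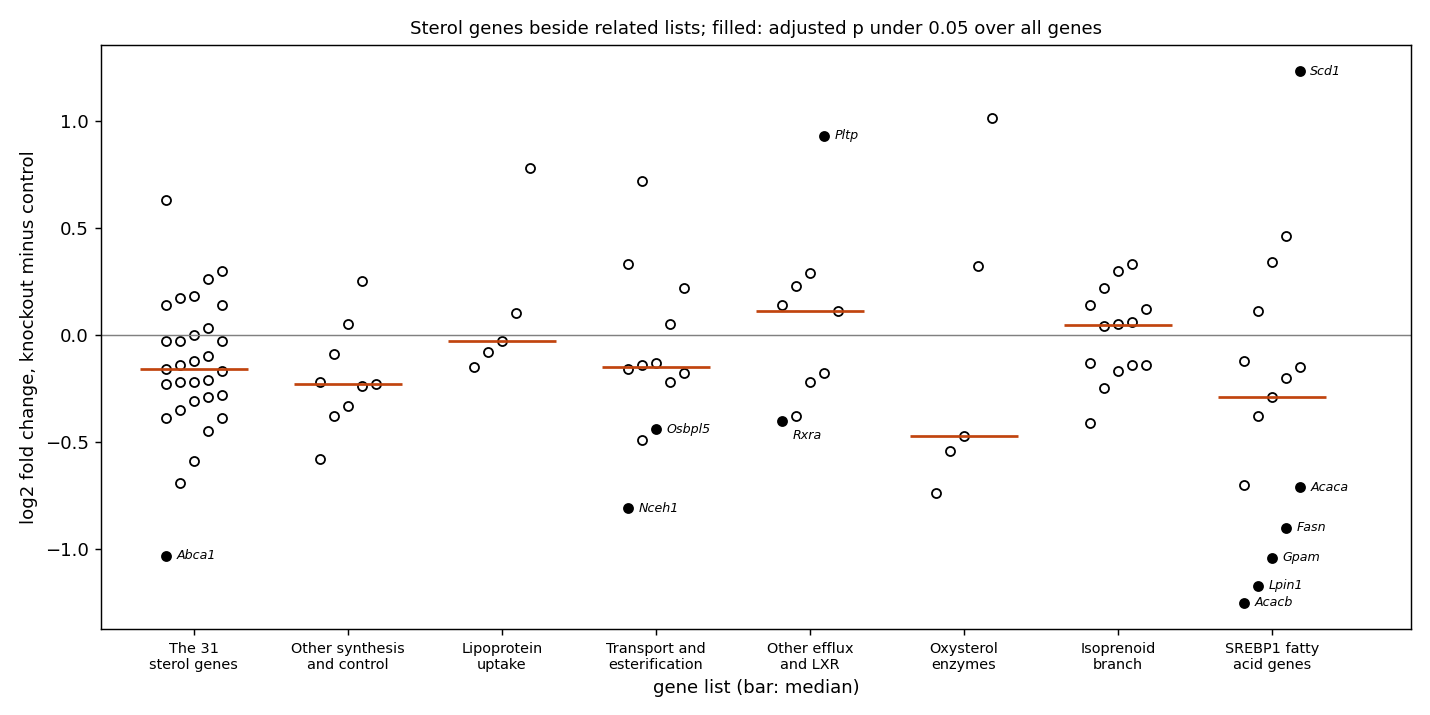
Log2 fold change, knockout minus control (vertical axis), of the 31 sterol genes and the tested genes of 7 related lists, 1 point per gene, with a bar at each median. Filled and named points passed adjusted p 0.05 over all genes: Abca1 among the 31, and 10 genes in the related lists, 6 of them in the fatty acid list.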

How the data were processed

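Messenger RNA of sorted lymph node LECs was sequenced in 2 knockout and 3 control libraries. Per the labels' protocols, cells were gated as CD45- and TER119- with CD31 and podoplanin, cDNA was amplified with SMART-Seq v4, and libraries came from Nextera XT tagmentation, which does not keep RNA strand. Raw read counts per Ensembl gene were deposited by the authors. Tools listed in the submitters' processing notes are HTSeq 0.6.1, Bowtie2 2.1.0, TopHat2 2.0.14 and bcl2fastq 2.17.1.14, with build mm10. Settings, annotation release and multimapping rules: not given in the sources used here.

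Symbols, positions, exon unions and GC content were taken from GENCODE M21 on the same build (27648 of 27843 genes matched). The count test was edgeR 4.0.16 under R 4.3.3, after filterByExpr (minimum count 10), TMM scaling (factors 0.9742 to 1.0276), robust dispersion and the quasi-likelihood F test, with Benjamini-Hochberg adjustment over 15874 genes and 0.05 as threshold. CPM uses TMM-scaled totals, and 1 SE is the log2 fold change over the square root of F. The fit was tested on simulated counts.

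Alternatives were RLE factors, library totals alone, 2 other filters, DESeq2 1.42.0, limma-voom (limma 3.58.1), no robust estimation, the replicate block, a loess offset (span 0.5) for exon length and GC content, both together, and leaving out each library. The genes and related lists were chosen with earlier results of these data known. All 31 sterol genes are named. From each related list up to 4 called genes with the smallest p were named, or up to 2 where none passed; Acaca and Acacb were added after their values were seen. Cyp7a1 was not analysed here, and some genes of the related lists are not reported here. The nuclear receptor repeat was searched for later, with the data known. Promoter sequences are from RefSeq and were matched for 25 of the 31 genes.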

Additional observations from a re-analysis of the deposited data

How the results depend on the processing

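The replicate number is shared by libraries of both groups, but the labels do not say that it marks a litter or batch. Deviations from the group mean correlated at r = 0.0477 between the libraries numbered 1 and at -0.0515 between those numbered 2. Between knockout library 2 and control library 3 r was 0.107. The 2 knockout libraries deviate by equal and opposite amounts, so these r cannot decide whether the numbers mark pairs. With the replicate block, in which control library 3 has no partner, 0 genes were higher and 0 lower, and 0 sterol genes were called, with Abca1 at -1.13 ± 0.14 (edgeR adjusted p = 0.087). With the block and the length and GC offset together, 0 genes were higher, 3 lower and 0 sterol genes called. DESeq2 called 1254 genes higher and 1466 lower, and 5 sterol genes lower. Sterol genes called lower numbered 3 without a filter on low counts (Abca1, Insig2 and Mylip) and 2 with a filter at 1 CPM (Abca1 and Insig2). The offset for length and GC alone gave 408 higher and 330 lower calls, a split turned towards higher, where the main one was 516 and 634, and Abca1 stood at -0.86 ± 0.14 and stayed called. Over fits leaving out 1 library, higher genes numbered 2 to 784 and lower genes 9 to 1125, 0 to 1 sterol genes were higher and 0 to 6 lower, and the median of the sterol genes was -0.27 to -0.01. Without control library 3, 2 genes were higher and 9 lower in all, without control library 2, 78 and 95, and without control library 1, 135 and 131.

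The sterol genes whose sign turned under a setting were uncalled in every fit where it turned, with log2 fold changes near 0 in most. Under the replicate block Nsdhl was at 0.01, Srebf2 at 0.01 and Npc1 at -0.03. With the offset Srebf2 was at 0.10, and with offset and block it was at 0.15, Tm7sf2 at 0.02, Msmo1 at 0.05, Nsdhl at 0.01 and Fdps at 0.00. With a library left out, Idi1 ran from -0.70 to 0.22, Fdps from -0.30 to 0.04, Cyp51 from -0.56 to 0.04 and Msmo1 from -0.47 to 0.07, with the upper end without knockout library 1. Sc5d ranged from -0.11 to 0.10, Nr1h3 from -0.17 to 0.09, Nsdhl from -0.07 to 0.01, Srebf2 from -0.20 to 0.11 and Npc1 from -0.03 to 0.12. Without a filter on low counts Sc5d was at 0.00. The causes were not tested. Depth does not limit Abca1, but the lowest genes, Tm7sf2 and Lss, rest on few CPM, and intervals between 2 and 3 libraries are wide.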
